A study of Mus musculus with 12 samples.

Results

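The insulin receptor and PI3K-Akt group described here was 8 genes, taken as the rows of the deposited table that carry these gene names, out of 56748 genes in all. They are the receptors *Insr* and *Igf1r*, the adaptors *Irs1* and *Irs2*, the receptor inhibitor *Grb14*, the PI3K regulatory subunit *Pik3r1* and the kinases *Akt1* and *Akt2*, each with 1 row. The study compared mRNA on rod ribosomes with total RNA of mouse retina when *Pkm2*, the pyruvate kinase isoform of photoreceptors, was deleted in rods. All mice were homozygous for RiboTag, an allele that puts an HA tag on a ribosomal protein wherever Cre has acted, and all carried i75-Rod-Cre, a transgene in which the rhodopsin promoter drives Cre. Control mice (*Pkm2* Rodhet, designated WT) were RiboTag;Pkm2fl/+;i75-Rod-Cre and so lacked 1 *Pkm2* allele in rods, and *Pkm2* Rodko mice were RiboTag;Pkm2fl/fl;i75-Rod-Cre. Retinas were frozen after perfusion with cycloheximide, which holds ribosomes on mRNA, and the polyribosomes pulled down through HA gave the rod fraction (rods), while lysate before the pulldown gave the retina fraction. Each of the 4 groups had 3 libraries of polyA RNA. The deposited design gives the age as 2 weeks and the study's methods give 2 months.

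Insulin and insulin-like growth factors bind receptor tyrosine kinases, which phosphorylate the IRS adaptors. The adaptors bring PI3K, an enzyme of a catalytic and a regulatory subunit, to the membrane, and the lipid it makes recruits Akt, a kinase that acts on survival, metabolism and protein synthesis. *Grb14* binds the activated insulin receptor and blocks its kinase. In the retina this pathway is known for its part in photoreceptor survival. Rods are the most numerous cells of the mouse retina, so that total retina holds rod RNA as well.

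The promoters of the members that lay farthest from retina in rods are printed here, since *Pik3r1* was the highest of the 8 in rods relative to retina and *Irs1* and *Grb14* the lowest. Each run is the 250 bases before a transcript start, 5′ to 3′ on the gene's strand, in the RefSeq table on GRCm38.p6, which is not the build the authors used. The *Pik3r1* window is chr13:101768218-101768467 (the first of 2 starts), the *Irs1* window chr1:82291440-82291689 and the *Grb14* window chr2:65022767-65023016, each on the minus strand. Capitals mark a match to TGCTGA.
Pik3r1: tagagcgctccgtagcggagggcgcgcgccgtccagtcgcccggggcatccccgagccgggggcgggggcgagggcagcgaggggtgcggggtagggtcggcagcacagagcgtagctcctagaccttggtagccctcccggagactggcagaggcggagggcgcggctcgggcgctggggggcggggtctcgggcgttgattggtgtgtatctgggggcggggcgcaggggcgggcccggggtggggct
Irs1: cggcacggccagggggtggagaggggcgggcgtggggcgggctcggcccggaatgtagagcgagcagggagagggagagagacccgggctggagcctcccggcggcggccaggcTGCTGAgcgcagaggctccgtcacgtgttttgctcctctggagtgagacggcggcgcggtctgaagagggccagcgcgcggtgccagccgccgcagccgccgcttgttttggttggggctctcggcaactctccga
Grb14: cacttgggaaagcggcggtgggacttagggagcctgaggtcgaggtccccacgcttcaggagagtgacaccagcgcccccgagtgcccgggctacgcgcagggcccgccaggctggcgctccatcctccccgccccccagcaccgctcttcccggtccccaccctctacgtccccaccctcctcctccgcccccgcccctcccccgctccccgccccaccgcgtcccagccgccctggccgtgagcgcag
The table held 12 such windows for 7 of the 8 members. They were searched on both strands for TAATCC, the core read by the photoreceptor homeodomain factor CRX, and for TGCTGA, part of the element read by leucine zipper factors of the NRL type. TAATCC was in none of the 12, and 6.25% of all 32851 promoters of that length held it. TGCTGA, which 16.1% of all promoters held, was in 3 of the windows, at 136 bases before the start in *Irs1*, at 14 in *Akt1* and, on the minus strand, at 216 in *Akt2*. These matches describe letters and say nothing about binding.

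Libraries held 13458890 to 22790074 reads. *Pkm*, whose value sums all isoforms, checked the genotype labels. On the deposited scale it stood at 52565 ± 1766 (SD, n = 3) in rods of control mice and 22850 ± 795 in those of Rodko mice (log2 difference -1.20, adjusted p = 5.36e-05, limma), and 32324 ± 1664 and 20529 ± 552 in retina (-0.65, adjusted p = 0.0219). In retina the call was lost, with the difference at -0.68 to -0.64, when any library other than control retina replicate 2 was left out (adjusted p up to 0.949), and under limma without its variance trend both calls were lost (adjusted p = 0.0784 in rods and 0.277 in retina). The labelled cell type was checked with marker genes. All 15 rod markers were higher in rods than in retina, and their summed level was 408% of retina in control and 399% in Rodko. Markers of the other cell types were lower in rods in both genotypes except *Prkca*, on the bipolar list, and in Rodko *Pecam1*, on the endothelial list, which did not pass the test. No marker was at 0 reads throughout a group. In control rods the summed level was 14.3% of retina for amacrine, 11.2% for ganglion, 11.9% for horizontal, 14.4% for Müller glia, 32.7% for bipolar and 62.8% for cone markers. By the median log2 difference of rods minus retina, the lists stood at -3.02 (amacrine), -3.08 (ganglion), -3.32 (horizontal), -2.91 (Müller glia), -3.15 (bipolar) and -0.72 (cone). In these bulk samples, fewer cells of a type and less RNA per cell cannot be told apart, and neither can the cell of origin and the share of an mRNA on ribosomes, since the rod fraction is ribosome-bound and the retina fraction is not.

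The first comparison asked where in the retina each member was expressed. The authors scaled the 2 fractions apart, so the reads of all 12 libraries were put on 1 scale by TMM (trimmed mean of M-values, which assumes that most genes do not differ), and levels in this comparison are TMM-scaled reads. Differences are log2(scaled reads + 1) in rods minus retina, which understates the change of low genes, with adjusted p from limma over all 25458 genes tested and a threshold of 0.05. *Pik3r1*, *Irs2*, *Insr* and *Igf1r* were higher in rods of both genotypes under TMM, while *Irs2*, *Insr* and *Igf1r* fell below 0 when scaled by total reads or left on the deposited scale. *Grb14*, *Irs1* and *Akt2* were lower in rods in both genotypes under all 4 scalings tried. So 4 of 8 were higher and 3 of 8 lower, beside 23.6% and 35.7% of all genes called higher and lower in control, and 24% and 35.3% in Rodko. The median difference of all genes under TMM was -0.36 in control and -0.31 in Rodko, and that of the 8 members 0.14 and 0.05. The total-read scale moved the median of all genes to -0.76 and -0.74, and the deposited scale to -0.80 and -0.74. Over all 10 alternative settings, other filters among them, this median ran from -0.80 to 0.24 in control and from -0.74 to 0.26 in Rodko. Relative to the median of the same scaling, *Pik3r1*, *Irs2*, *Insr* and *Igf1r* lay above and *Irs1*, *Grb14* and *Akt2* below under all 4 scalings in both genotypes. The 3 libraries of a group are separate samples by their labels, but nothing says which animals they came from, so p-values measure the spread between these libraries.

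**Figure D1:**
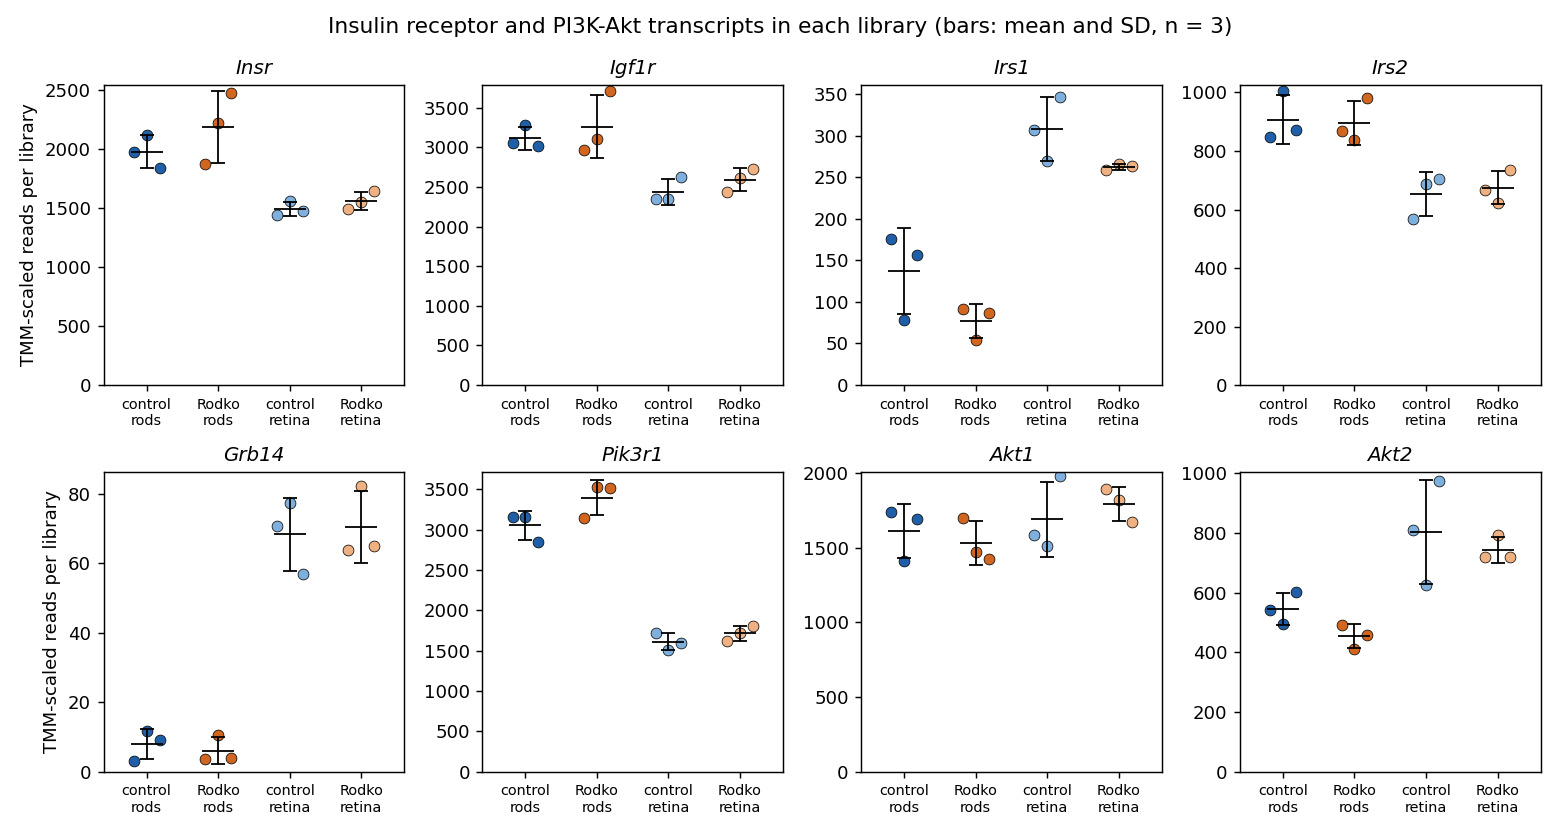
TMM-scaled reads of each of the 8 members (vertical axes from 0, 1 panel a gene) in the 3 libraries of control rods, Rodko rods, control retina and Rodko retina; points are libraries and bars the mean and SD. *Grb14* is at 3.17 to 11.7 scaled reads in the rod libraries and at 56.8 to 82.4 in the retina libraries, and *Pik3r1* libraries from rods all lie above those from retina.

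Among the receptors, *Insr*, the insulin receptor, had 1974, 2117 and 1837 TMM-scaled reads in control rods and 1437, 1554 and 1475 in control retina. In Rodko it had 1868, 2215 and 2471 in rods and 1488, 1550 and 1640 in retina. On this scale every rod library lay above every retina library of its genotype. Deposited values of control, on a scale set separately in each fraction, ran the other way, 1472.7 to 1716.6 in rods and 1741.6 to 1904.5 in retina. Under TMM the log2 difference was 0.41 ± 0.09 (SE; adjusted p = 0.00163) in control, a 1.33-fold higher level, and 0.48 ± 0.09 (adjusted p = 0.000413) in Rodko, and it was -0.14 and -0.11 when scaled by total reads (adjusted p = 0.222 and 0.367).

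*Igf1r*, the receptor of insulin-like growth factor 1, had 3052, 3281 and 3011 TMM-scaled reads in control rods and 2349, 2344 and 2627 in control retina. The Rodko libraries had 2968, 3102 and 3717 in rods and 2442, 2610 and 2730 in retina. On this scale the fractions again did not overlap within a genotype. Deposited values of control, scaled separately in each fraction, were lower in rods, 2414.2 to 2660.6 against 2847.1 to 3215 in retina. Under TMM the difference was 0.35 ± 0.09 (adjusted p = 0.00273) in control and 0.33 ± 0.09 (adjusted p = 0.00476) in Rodko, while on the deposited scale it turned to -0.24 (adjusted p = 0.0318) and -0.28 (adjusted p = 0.0156), and on the total-read scale it was -0.20 (adjusted p = 0.0784) and -0.26 (adjusted p = 0.0242). Its direction in rods thus depended on the scale, and with it the call.

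The adaptors *Irs1* and *Irs2*, which couple the receptors to PI3K, lay on opposite sides of retina under TMM. *Irs1* had 175.7, 78.3 and 156.8 TMM-scaled reads in control rods, from 87 to 111 actual reads a library, and 307, 269.6 and 346.3 in control retina. In Rodko it had 91.8, 53.8 and 86.6 in rods and 258.4, 265.4 and 263.9 in retina. The highest rod library lay below the lowest retina library in both genotypes, and the rod libraries of control spread the most, with replicate 2 below the others. The difference was -1.24 ± 0.26 (adjusted p = 0.000605) in control and -1.79 ± 0.26 (adjusted p = 1.75e-05) in Rodko, and the mean rod level was 44.5% and 29.5% of that in retina. Of all genes, 31.3% had a lower difference in control and 23.5% in Rodko. In the GENCODE vM21 annotation 30.9% of the *Irs1* exon bases are shared with the antisense gene *Gm9747*, which had 0 reads in every library.

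*Irs2* had 847, 1004 and 870 TMM-scaled reads in control rods and 566, 686 and 703 in control retina. In Rodko it had 867, 838 and 979 in rods and 667, 622 and 734 in retina. Rods lay above retina in every library on this scale. Deposited values of control, scaled separately in each fraction, overlapped (685.6 to 814.2 in rods, 685.7 to 860.4 in retina). Under TMM the difference was 0.48 ± 0.11 (adjusted p = 0.00117) in control and 0.41 ± 0.11 (adjusted p = 0.0038) in Rodko, against -0.07 and -0.18 by total reads (adjusted p = 0.603 and 0.188). On the scale of reads per kilobase of exon, which allows levels of different genes to be compared, *Irs2* stood at 143.4 and *Irs1* at 15.0 in control rods, and at 103.1 and 33.6 in control retina.

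*Grb14*, the inhibitor of the insulin receptor kinase, was the member with the lowest level in rods relative to retina. Its deposited values, on a scale set separately in each fraction, were 2.6, 9.5 and 7.4 in control rods, from 2, 13 and 6 reads, and 85.7, 94.9 and 69.5 in control retina, from 81 to 89 reads. Rodko rods held 3, 8 and 4 reads and Rodko retina 71 to 112. No rod library came near a retina library, and the rod values rest on so few reads that they differ among themselves by several fold. On the TMM scale the difference was -3.08 ± 0.44 (adjusted p = 1.98e-05) in control, and the mean in rods was 11.8% of that in retina. In Rodko it was -3.46 ± 0.44 (adjusted p = 5.32e-06) and the mean was 8.61%. In control 6.58% of all genes had a lower difference, and in Rodko 4.77%. The share of 11.8% lay within the marker sums of amacrine, ganglion, horizontal and Müller cells and microglia in control rods, 11.2% to 14.4%. It lay below those of endothelial cells (14.7%), pigment epithelium (15.6%), bipolar cells (32.7%) and cones (62.8%). Abundant genes weigh most in these sums, and the order differed by the median log2 difference of each list. In control the bipolar (-3.15), ganglion (-3.08), horizontal (-3.32) and microglia (-3.08) medians stood lower than *Grb14* or level with it. Those of amacrine cells (-3.02), Müller glia (-2.91), endothelial cells (-2.84), pigment epithelium (-2.36) and cones (-0.72) stood higher. In Rodko 8.61%, which rests on those 3, 8 and 4 reads, lay below the sums of all these lists, 9.24% to 63.6%. By the median log2 difference in Rodko, bipolar (-3.59), ganglion (-3.47) and amacrine (-3.47) markers stood lower than *Grb14* (-3.46) or level with it. The other lists stood higher, at -3.30 (horizontal) to -0.65 (cones). The part of RNA from other cells in the rod value of *Grb14* was not tested.

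*Pik3r1*, which encodes p85α and its shorter forms, the subunits that dock PI3K on phosphorylated adaptors, was the member with the highest level in rods relative to retina. It had 3153, 3162 and 2841 TMM-scaled reads in control rods and 1718, 1507 and 1601 in control retina. In Rodko it had 3149, 3529 and 3514 in rods and 1621, 1715 and 1806 in retina. The lowest of its 6 rod libraries was above the highest of the 6 from retina. The difference was 0.92 ± 0.08 (adjusted p = 6.89e-08), a 1.90-fold higher level, in control and 0.99 ± 0.08 (adjusted p = 2.84e-08) in Rodko. It stayed above 0 by total reads (0.37, adjusted p = 0.00116, and 0.40, adjusted p = 0.000633) and on the deposited scale (0.33 and 0.38), the only member called higher under all 4 scalings. Under TMM, 91.2% of all genes had a lower difference in control.

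Of the kinases, *Akt1* had 1738, 1409 and 1693 TMM-scaled reads in control rods and 1584, 1512 and 1980 in control retina, so the fractions overlapped. In Rodko it had 1701, 1472 and 1422 in rods and 1892, 1821 and 1669 in retina, where they overlapped as well. The difference did not pass the test in control (-0.06, 95% interval -0.30 to 0.17, adjusted p = 0.634) or in Rodko (-0.23, -0.47 to 0.01, adjusted p = 0.087). With same-numbered rod and retina libraries as a block it was called lower in Rodko (-0.23, adjusted p = 0.0141), as under RLE scaling (-0.31, adjusted p = 0.0271), and it was called lower in both genotypes by total reads (-0.62, adjusted p = 0.000166, and -0.82, adjusted p = 9.55e-06). Without Rodko rods replicate 1 the Rodko difference was -0.33 (adjusted p = 0.0246).

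*Akt2*, the isoform best known for insulin-driven glucose uptake, had 541, 495 and 603 TMM-scaled reads in control rods and 809, 627 and 974 in control retina. In Rodko it had 493, 412 and 459 in rods and 718, 794 and 720 in retina. Each rod library lay below each retina library, and the retina libraries of control spread the most. The difference was -0.54 ± 0.13 (adjusted p = 0.00281) in control and -0.71 ± 0.13 (adjusted p = 0.000275) in Rodko, or 68.0% and 61.1% of the retina level. It lay near the median of all genes in control, where 46.3% of genes had a lower difference, against 41.9% in Rodko.

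**Figure D2:**
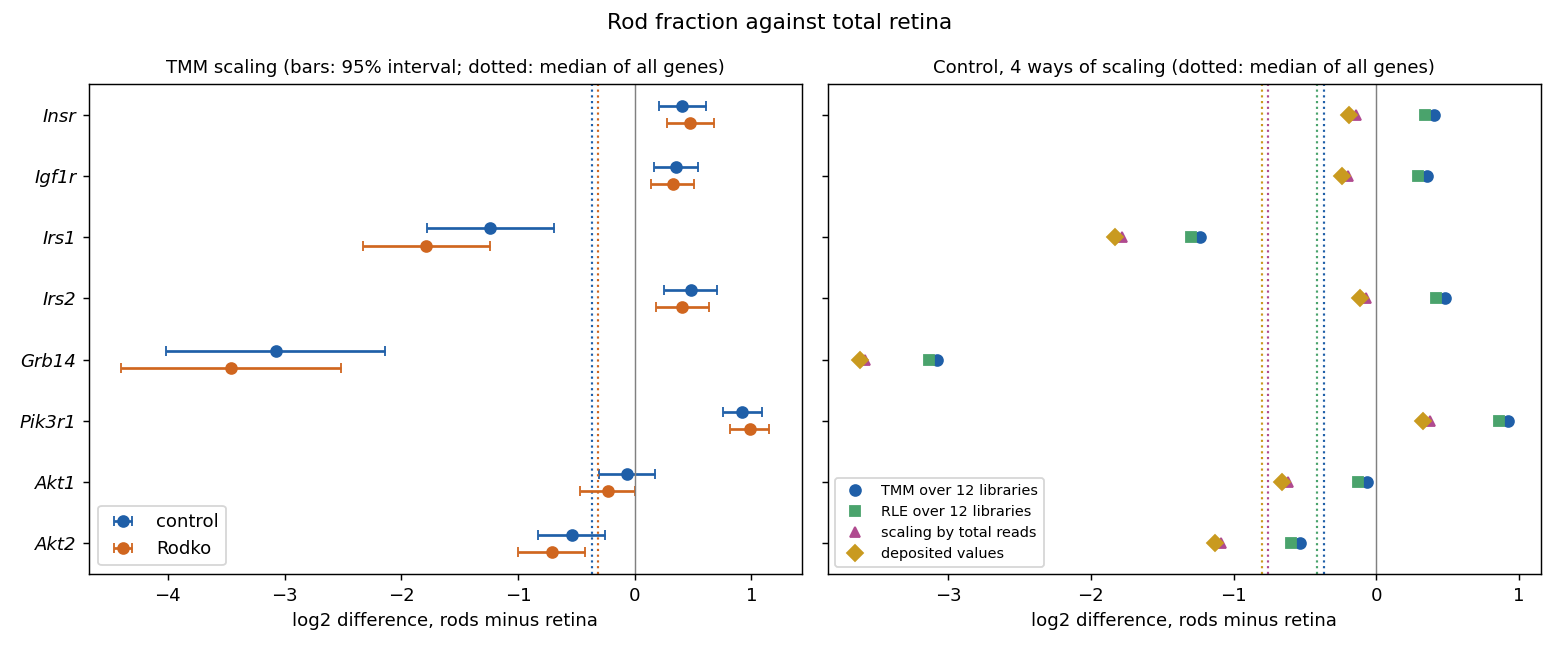
Log2 difference of rods minus retina for the 8 members; left, TMM scaling in control and Rodko with 95% intervals; right, control under TMM, RLE, total reads and the deposited scale, with the median of all genes as dotted lines. *Pik3r1* is right of 0 and *Irs1*, *Grb14* and *Akt2* left of it under each scaling, while *Insr*, *Igf1r* and *Irs2* cross from 0.35 to 0.48 under TMM to between -0.24 and -0.07 by total reads and on the deposited scale.

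Set against each other per kilobase of exon (TMM-scaled reads divided by the length of all exons in GENCODE vM21), the members of control rods stood in the order *Akt1* (393.6 ± 43.6, SD, n = 3), *Pik3r1* (302.8 ± 18.2), *Igf1r* (185.5 ± 8.64), *Insr* (143.7 ± 10.2), *Irs2* (143.4 ± 13.4), *Akt2* (76.6 ± 7.59), *Irs1* (15.0 ± 5.65) and *Grb14* (1.12 ± 0.61). Of neighbours in that order, only *Insr* and *Irs2* had ranges of mean ± 1 SD that overlapped. In Rodko rods the order was the same, and these ranges overlapped for *Akt1* and *Pik3r1*, *Igf1r* and *Insr*, and *Insr* and *Irs2*. In control retina *Akt1* (412.8 ± 61.5) stood above *Pik3r1* (159.6 ± 10.5), *Igf1r* (145.3 ± 9.65), *Akt2* (112.7 ± 24.4), *Insr* (108.3 ± 4.35) and *Irs2* (103.1 ± 11.8). From *Pik3r1* to *Irs2*, the range of each overlapped that of the next. *Irs1* (33.6 ± 4.19) and *Grb14* (9.51 ± 1.47) came last there too. *Grb14* thus had the lowest level of the 8 in every group. With the length of the longest transcript in place of all exons the order was unchanged in 3 of 4 groups, and in Rodko retina *Irs2* and *Akt2* changed places.

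The second comparison asked whether deletion of *Pkm2* in rods changed the members, within each fraction on the scale the authors gave it. No member passed the test in rods or in retina. Over all genes 4 of 20658 were called in rods (0.0194%) and 1 of 25590 in retina (0.00391%) by limma, with 986 and 1069 at an unadjusted p under 0.05. None of the 8 was called by edgeR or DESeq2 on the recovered reads either, though DESeq2 gave no adjusted p for *Grb14* in rods. Missing the threshold does not show that a member was unchanged, so the 95% interval of each difference is given.

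*Irs1* had the lowest genotype difference of the 8 in rods. Its deposited values were 142.2, 63.5 and 125.7 in control rods and 74, 43.9 and 70.5 in Rodko rods. Replicate 2 of control lay among the Rodko libraries, so the groups overlapped. The log2 difference was -0.76 ± 0.30 (95% interval -1.41 to -0.11, unadjusted p = 0.0247, adjusted p = 0.932), and leaving out each library in turn gave -1.11 to -0.53, the former without control rods replicate 2. In retina the values were 372.1, 330.4 and 423.7 in control and 316.5, 326.5 and 329.3 in Rodko, a difference of -0.20 (-0.45 to 0.04, adjusted p = 0.947), with no overlap between the groups.

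*Akt2* in rods was at 438.3, 401.2 and 483.1 in control and at 397.4, 336.6 and 373.9 in Rodko. Each Rodko library lay below each control library, and the difference was -0.25 (-0.51 to 0.0046, adjusted p = 0.932), while in retina it was -0.07 (-0.35 to 0.21). *Akt2* was thus the 1 member of 8 without overlap in rods, and *Irs1* the 1 in retina, beside 9.89% and 9.29% of all genes tested.

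For the other members in rods the values were as follows. *Pik3r1* was at 2553, 2564 and 2277 in control rods and 2537, 2880 and 2862 in Rodko rods (difference 0.16, -0.03 to 0.36), *Insr* at 1473 to 1717 and 1505 to 2012 (0.15, -0.09 to 0.39), and *Igf1r* at 2414 to 2661 and 2391 to 3027 (0.07, -0.14 to 0.28). *Irs2* (-0.01, -0.24 to 0.22) and *Akt1* (-0.06, -0.29 to 0.16) were nearest to 0. *Grb14* had the widest interval of the 8 (-0.33, -1.57 to 0.92), since it rests on 2 to 13 reads a library, and a fall of 2-fold lies inside that interval. Leaving out 1 rod library at a time gave *Grb14* -0.79 (without control rods replicate 1) to -0.015 (without control rods replicate 2). In retina, where it had 71 to 112 reads, its interval was -0.36 to 0.48 around 0.06. *Insr* (0.08), *Igf1r* (0.11), *Irs2* (0.07), *Pik3r1* (0.11) and *Akt1* (0.11) in retina had intervals from no lower than -0.16 to no higher than 0.32.

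Markers of other cell types are given beside these values, with the median difference of all genes at 0.006 in rods and -0.004 in retina. Of the markers tested in rods, 8 of 9 bipolar, 8 of 8 Müller glia, 7 of 8 amacrine, 7 of 7 ganglion and 5 of 6 microglia genes had lower values in Rodko than in control, with medians of -0.49, -0.38, -0.44, -0.47 and -0.47, and none passed the test. The count was 7 of 8 for cones (median -0.11), 2 of 4 for horizontal cells (-0.11, highest 1.05), 3 of 5 for endothelial cells (-0.25, highest 0.82) and 3 of 5 for pigment epithelium (-0.16, highest 0.28), again with none past the test. In the first 5 of these lists the summed TMM-scaled reads in control and Rodko rods ranged from 5768 to 7085 and 5151 to 6823 for bipolar cells, from 8662 to 11266 and 7456 to 8881 for Müller glia, from 2234 to 3153 and 1865 to 2200 for amacrine cells, from 1165 to 1635 and 869 to 1409 for ganglion cells, and from 55.8 to 136.8 and 60.3 to 89.3 for microglia. The ranges of the genotypes overlapped for bipolar cells, Müller glia, ganglion cells and microglia, and not for amacrine cells. Sums ranged from 9311 to 11279 and 9150 to 10262 for cones, from 101.3 to 154.7 and 97.2 to 108 for horizontal cells, from 265.9 to 380.5 and 215.1 to 290.8 for endothelial cells, and from 158.3 to 970 and 242.2 to 709.6 for pigment epithelium. The rod markers had a median of 0.06, with 2 of 15 below 0. Counts below 0 in retina were 9 of 9 for bipolar cells (median -0.21) and 8 of 8 for Müller glia (-0.15). They were 7 of 8 for amacrine cells (-0.07), 6 of 7 for ganglion cells (-0.04) and 5 of 6 for microglia (-0.22). For cones the count was 8 of 8 (-0.12), for endothelial cells 5 of 5 (-0.13) and for horizontal cells 3 of 4 (-0.07). Pigment epithelium had 2 of 5 (0.53) and rods 2 of 15 (0.09), none past the test. The part of RNA from other cells in the rod values of *Irs1*, *Grb14* and *Akt2* was not tested.

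**Figure D3:**
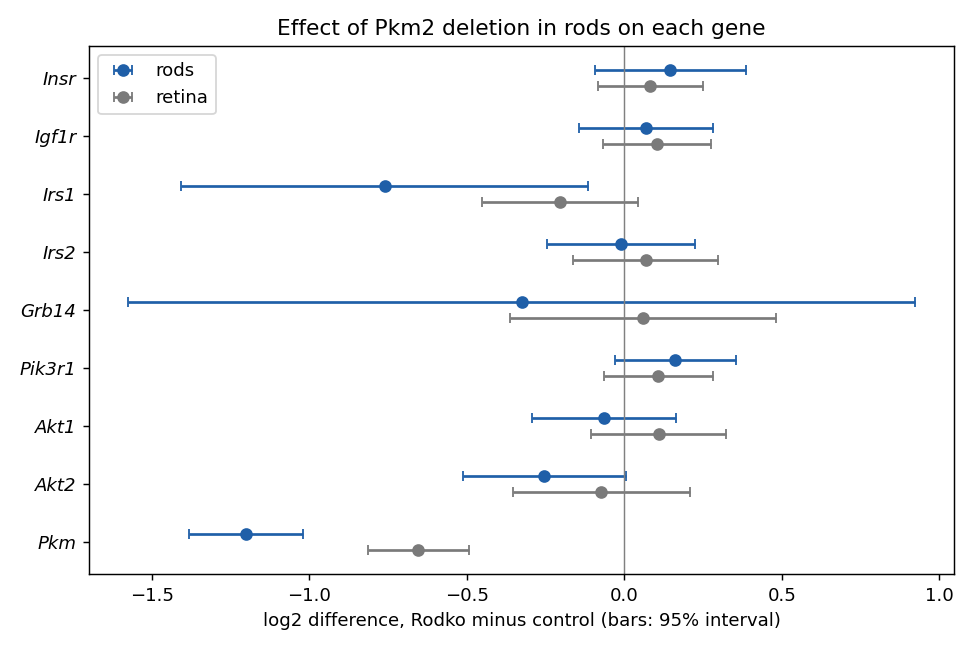
Log2 difference of Rodko minus control (horizontal axis, bars the 95% interval) for the 8 members and *Pkm* in rods and in retina. Of these 9 genes only *Pkm*, at -1.20 in rods and -0.65 in retina, passed the adjusted threshold with all libraries, and its retina call was lost without any 1 of 5 of the 6 libraries. The interval of *Grb14* in rods is the widest, from -1.57 to 0.92.

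The third comparison set the genotype effect in rods against that in retina in 1 fit of the 12 libraries. No member passed the test. Over all genes 0 of 25458 were called (0%) by limma, 0 by edgeR and 1, *Pkm*, by DESeq2, with 1124, 1191 and 907 at an unadjusted p under 0.05, and limma without its variance trend called 8 higher and 4 lower. *Irs1* had the largest difference of the 8 (-0.55, 95% interval -1.32 to 0.22, adjusted p = 0.978), followed by *Grb14* (-0.38, -1.71 to 0.95). Leaving out 1 library at a time gave *Irs1* -0.89 (without control rods replicate 2) to -0.30 (without Rodko rods replicate 2) and *Grb14* -0.88 (without control rods replicate 1) to -0.053 (without control rods replicate 2). Those of *Akt2* (-0.17), *Akt1* (-0.17), *Insr* (0.07), *Irs2* (-0.07), *Pik3r1* (0.06) and *Igf1r* (-0.03) were smaller, with intervals inside -0.58 to 0.36.

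The rest of the pathway was read from 68 further genes by role, of which 67 passed the filter on low values. Under TMM, 27 were higher and 20 lower in rods than in retina in control, and 27 and 21 in Rodko, with medians of -0.0019 and 0.034 beside -0.36 and -0.31 for all genes. Of all genes 23.6% were called higher and 35.7% lower in control, and 24% and 35.3% in Rodko. The counts by role below stand beside the same shares. As for the members, the calls above 0 depended on the scale, since by total reads 4 were higher and 36 lower in control and 5 and 40 in Rodko. The calls over all genes moved too. Over the 10 alternative settings 3614 to 13144 genes were lower in control and 3586 to 12814 in Rodko, against 9090 and 8992 under TMM. All 20 of the genes lower in control and all 21 in Rodko were called lower under all 4 scalings, while of the 27 higher genes 3 were called higher in each genotype under all 4, *Sh2b1*, *Pik3cb* and *Mapkap1* in control and *Pik3cb*, *Pik3c3* and *Mapkap1* in Rodko. Relative to the median of all genes in the same scaling, 40 lay above and 23 below under all 4 scalings in control. Over the 10 alternative settings, other filters among them, that median reached 0.24 in control and 0.26 in Rodko. None of the 67 was called in a genotype comparison or in the comparison of the genotype effects.

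Of the ligands, *Ins1* had 0 reads in 11 of the 12 libraries and 1 in the last, and did not enter the test, and *Ins2* had 0 to 7. *Igf1* (log2 difference of rods minus retina in control -3.49, adjusted p = 4.39e-09) and *Igf2* (-2.24, adjusted p = 0.000157) were lower in rods, with 29 to 68 and 4 to 16 reads in control rods and 609 to 907 and 49 to 103 in control retina. Of the receptors, *Insrr*, a paralog of the insulin receptor that does not bind insulin, had 0 to 5 reads in the rod libraries and 23 to 88 in retina (-3.47, adjusted p = 0.000704).

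Among the other adaptors 1 of 10 was higher and 4 lower. *Sh2b1*, which binds the receptors and raises their signal, was higher (0.998, adjusted p = 1.51e-07), and its relative *Sh2b2* lower (-3.57, adjusted p = 3.59e-05). *Gab2* (-2.82) and *Shc1* (-0.65, adjusted p = 0.00347), which link receptors to PI3K and to Ras, were lower. *Irs4* had 0 to 6 reads in rod libraries and 1 to 8 in retina libraries and did not pass the test.

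Of 9 further inhibitors of the receptors 4 were higher and 3 lower. *Grb10*, the paralog that shares the inhibitory role of *Grb14*, had 1954 ± 123 TMM-scaled reads (SD, n = 3) in control rods and 1341 ± 46 in control retina, a difference of 0.54 (adjusted p = 2.48e-05) that was -0.01 by total reads and -0.05 on the deposited scale, while *Grb14* stood at 8.03 ± 4.39 and 68.3 ± 10.5. The third paralog, *Grb7*, had 0 to 3 reads in rods and 4 to 16 in retina (-1.99, adjusted p = 0.00823). The phosphatase *Ptpn2* was higher (0.75, adjusted p = 1.39e-05), and *Enpp1* (-3.26) and *Ptprf* (-3.22, adjusted p = 1.16e-09) were lower.

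Of 8 other PI3K subunits 5 were higher and 3 lower, and none failed the test. The catalytic subunit *Pik3cb* (0.88, adjusted p = 7.06e-07) and the regulatory subunit *Pik3r2* (0.84, adjusted p = 4.58e-05) were higher, like their relative *Pik3r1*. *Pik3r3* was lower (-0.95, adjusted p = 5.78e-07), as were *Pik3cd* (-2.98) and *Pik3cg* (-2.70), the catalytic subunits best known from leukocytes. *Pik3r2*, unlike *Pik3r1* and *Pik3cb*, was not called higher under all 4 scalings.

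Of the phosphatases that end the signal 4 of 9 were higher and 2 lower, among them *Phlpp2*, which acts on Akt (0.87, adjusted p = 9.4e-06), *Inppl1* (0.66) and the lipid phosphatases *Inpp4a* (-0.78, adjusted p = 4.28e-06) and *Inpp4b* (-2.54, adjusted p = 3.48e-08). The mTORC2 subunits *Mapkap1* (0.97, adjusted p = 1.13e-07) and *Mlst8* (0.71, adjusted p = 2.81e-06) and the kinase *Pdpk1*, which phosphorylates Akt (0.34, adjusted p = 0.00228), were higher under TMM, *Pdpk1* turning to -0.21 (adjusted p = 0.0413) by total reads. The 3 Trib genes, whose proteins bind Akt, were higher under TMM (0.39 to 0.89) and none of them was called under all 4 scalings, with *Trib1* at -0.16 by total reads. Of 17 Akt targets and mTORC1 genes 7 were higher, *Foxo3* (0.71, adjusted p = 1.2e-05) and *Rptor* (0.58, and -0.02 on the deposited scale) the most, and 4 lower, with *Pde3b* (-3.33, adjusted p = 2.53e-07) and *Tbc1d4* (-2.91, adjusted p = 8.35e-07) the lowest.

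**Figure D4:**
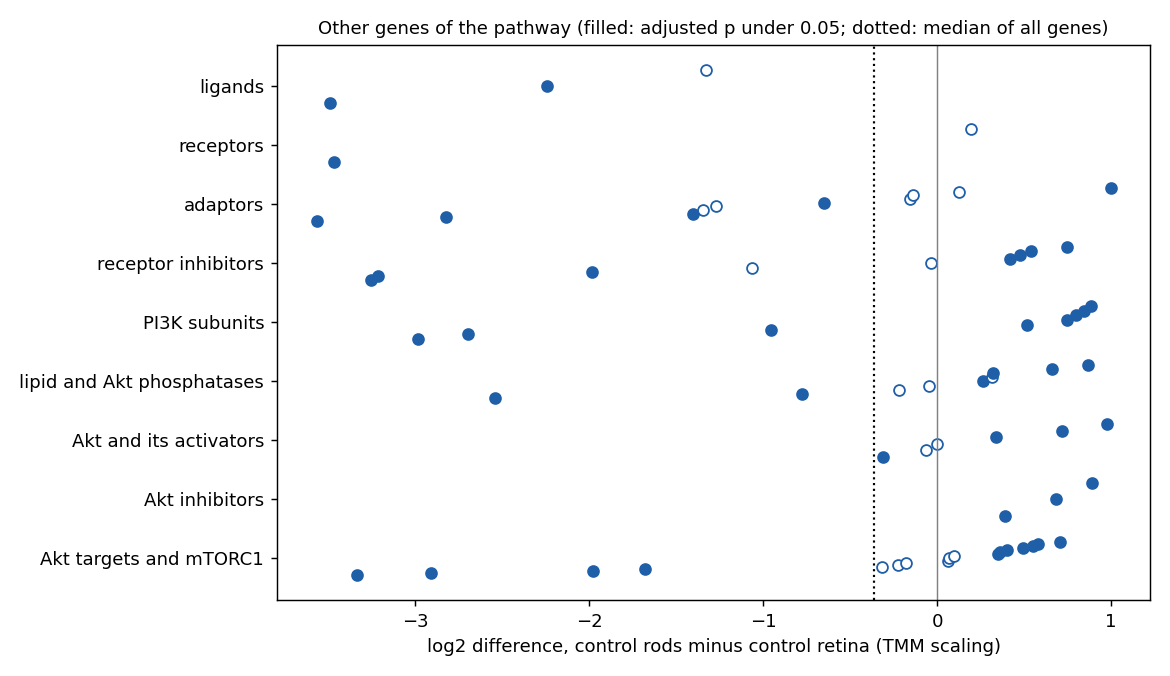
Log2 difference of control rods minus control retina under TMM scaling for the 67 tested pathway genes that are not members, 1 row a role; filled points passed the adjusted threshold of 0.05 (27 right of 0 and 20 left), open points did not, and the dotted line is the median of all genes at -0.36. Under TMM 23.6% of all genes are called higher and 35.7% lower. By total reads 4 of the pathway genes are called higher and 36 lower.

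The genes whose pattern over the 12 libraries was most like that of a member were found by the distance between centred log2 levels among 12662 genes with a mean of at least 50 TMM-scaled reads. They were *Sf3b1* and *Chd4* for *Insr* (distances 0.16 and 0.18), *Pdpk1* and *Mtmr3* for *Igf1r* (0.21 and 0.23), *Shmt2* and *Gmeb1* for *Irs2* (0.23 and 0.24) and *Mbnl2* and *Secisbp2l* for *Pik3r1* (0.23 and 0.24). Those of *Akt1* were *Flywch1* and *Usf2-ps1* (0.13 and 0.16) and those of *Akt2* *Dlgap4* and *Pacsin3* (0.38 and 0.38). The low members had more distant neighbours, *Fam43a* and *Chrnb4* for *Irs1* (0.63 and 0.76) and *Adcy8* and *Mta3* for *Grb14* (0.84 and 0.88). These distances describe libraries that share their fractions and carry no test.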

How the data were processed

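The deposited table gives a signal for every gene in each library, a read count that the authors had divided by the library's size factor and kept to 1 decimal. The submitters' processing notes name CASAVA 1.8.2, HISAT2, DESeq2, edgeR and GRCm39. The counter, annotation and strand setting are not given in the sources used here, so reads of overlapping antisense genes cannot be told apart. All 12 sample columns were used.

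Dividing each value by that of 1 read gave whole reads for 100% of positive values (within 0.1 read). The steps match size factors computed within each fraction (largest gap 3.5e-06%) and not over all 12 libraries (22.1%), so rods and retina were scaled apart by the authors. Genotypes were compared within a fraction with limma 3.58.1 (R 4.3.3, variance trend, moderated 95% intervals) on log2(deposited value + 1), for genes with a mean of at least 1 in 1 genotype. Rods and retina, and the genotype effects of both, were compared in 1 limma fit of 4 group means on log2(TMM-scaled reads + 1). The whole table was fitted, with Benjamini-Hochberg adjustment at 0.05. The values are not counts, so the recovered reads were tested with edgeR (4.0.16) and with DESeq2 (1.42.0) as alternatives, beside other scalings, filters and pseudocounts, the replicate block and leaving out each library. The methods name no test for RNA-seq. The scripts were tested on simulated data. Python 3.11.15, numpy, pandas and matplotlib recovered reads and drew figures. Exon lengths came from GENCODE vM21 (GRCm38), matched by identifier.

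Same-numbered rod and retina libraries of a genotype deviated together (r 0.274 to 0.556 in 6 pairs, against -0.473 to -0.0399 for other numbers), so the numbers pair these samples. No 2 replicates differed by as little as sampling noise.

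Genes named are the members, *Pkm*, paralogs of members, pathway genes past 0.05 in a genotype comparison, per pathway role the 2 highest and 2 lowest called genes in control rods over retina, and the 2 nearest genes in pattern of each member. Genes called under all scalings were named after their values were seen. The members and lists were chosen with earlier results of these data known. A gene that the rule names is not reported here.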

Additional observations from a re-analysis of the deposited data

How the results depend on the processing

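The scale that joins the fractions decided the calls above 0. By total reads 1 member was higher in rods in control and 1 in Rodko, and 5 were lower in Rodko, and on the deposited scale 1 was higher and 5 lower in each genotype, against 4 and 3 under TMM. Differences that changed sign were, in control and Rodko, -0.14 and -0.11 for *Insr*, -0.20 and -0.26 for *Igf1r* and -0.071 and -0.18 for *Irs2* by total reads, and -0.19 and -0.13, -0.24 and -0.28, and -0.12 and -0.20 on the deposited scale. Over all genes, 6004 were higher in control under TMM, 2186 by total reads and 1942 on the deposited scale, and a minimum of 10 reads in every library left *Grb14* out and 3614 genes lower in place of 9090. The number lower over all genes reached 13144 in control and 12814 in Rodko over the 10 alternative settings. Leaving out each library moved uncalled values across 0, with ranges of -0.079 to 0.068 for *Irs2* and -0.030 to 0.14 for *Igf1r* in rods by genotype, -0.035 to 0.13 for *Irs2*, -0.063 to 0.16 for *Grb14* and -0.24 to 0.080 for *Akt2* in retina, -0.14 to 0.054 for *Akt1* in control rods over retina, and -0.12 to 0.025 for *Igf1r*, -0.13 to 0.028 for *Irs2* and -0.014 to 0.16 for *Insr* between the genotype effects. The *Pkm* call in retina (-0.65) was lost with a minimum of 10 reads and with the replicate block (adjusted p = 0.157). Under the replicate block 0 members were called by genotype in rods and in retina and 0 between the effects, 4 were higher in rods and 3 lower in control, and 4 lower in Rodko, where *Akt1* was added. Control and Rodko libraries of the same number within a fraction did not deviate together (r -0.291 to 0.0356), so they share only a number, and blocking on it gave 8 calls over all genes in rods and 0 in retina. Genotype calls over all genes were few under every setting, 7 lower by DESeq2, 17 lower in 1 fit of all libraries and 0 lower without the variance trend in rods, an alternative added after the data were seen, and no member was among them. Precision is limited by 3 libraries a group and, for *Grb14*, by 2 to 13 reads a rod library.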
